A study of Bos taurus with 40 samples.

Results

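In the endometrium of heifers, the inner lining of the uterus, 39 genes had mean levels on day 5 that were at least 3.06-fold above their means on each of days 7, 13 and 16. They are 39 of the 32671 named genes measured, and 39 of the 12972 (0.301%) that reached the required level on day 5. They were chosen from the contralateral horn, the uterine horn on the side without the corpus luteum, the progesterone-secreting body left in the ovary after ovulation. The level used is CPM, a gene's read count divided by all counted reads of its library, times 1000000. A gene was kept where its contralateral mean was at least 5 CPM on day 5 and its means on days 7, 13 and 16 were each at most 0.33 of that. Of 42 rows that met these levels, COL12A1, COL8A1 and DMBT1 were left out by name. The day 5 pattern in the contralateral horn is therefore how the genes were chosen and not a finding, and it is given without a test. Tests use the ipsilateral horn, the horn on the side of the corpus luteum, whose libraries took no part in the choice.

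Day 5 falls early in the bovine luteal phase, when the corpus luteum is forming and its progesterone is rising. The endometrium consists of a surface epithelium, glands and a stroma of fibroblasts in extracellular matrix, with vessels and immune cells, and it lies on the smooth muscle of the uterine wall. Progesterone acts on this tissue through its receptor and sets the secretions that nourish an embryo before it attaches. Grouped by known role, the genes comprise matrix and adhesion proteins (TNC, ADAMTS18, C1QTNF3, CADM3, CHODL, TNS4), epithelial surface and differentiation genes (KRT7, MUC4, ELF5, VILL, MSLN, UPK3BL) and channels (KCNE3, TRPV6, AQP5). Receptors and signalling proteins are QRFPR, EPHB6, EPHB1, SHISA2, SOSTDC1, ARHGEF19 and NEURL1, and cytoskeletal proteins are TUBB2B, TUBB4A, KIF12 and GFAP. Enzymes, transfer proteins and secreted proteins are MGAT5B, AOX3L1, CYP2S1, TTPA, PROC and CXCL5. C3H1orf168 and 5 genes listed under LOC identifiers are given no role here, and 1 further gene enters the counts but is not reported by name. In the RefSeq annotation of the ARS-UCD2.0 assembly, 36 of the 39 names were found and 35 of these code for protein.

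Poly(A)-selected RNA of both horns was sequenced from 20 synchronized heifers killed on day 5, 7, 13 or 16, which makes 8 groups of 5 libraries and 20 libraries per horn. Sample labels call these pregnancy days, whereas the series design counts from estrus, and the sources used here do not say whether embryos were present. All heifers were synchronized, no treatment differs between the groups, and each library comes from homogenised tissue with all its cell types together. In such bulk tissue, fewer cells of a type and less RNA per cell cannot be told apart. Depth ranged from 27154030 to 64416989 reads assigned to genes per library.

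Some libraries stood apart. The deepest library, ipsilateral day 5 with the animal tag 3-175, was the highest of its 5 for 28 of the 39 genes. That count was not made over all genes. Ipsilateral day 16 tag 5-137 scored 8.30 on the first principal component of the 2000 most variable other genes, while the other 4 ipsilateral day 16 libraries scored 34.6 to 41.7. The tags should pair the horns of a heifer, yet the horns of a tag were each other's closest match in only 5 of 20 tags, by correlation of their deviations from the group means over the same 2000 genes. Libraries of unlike tags did pair one to one: contralateral 1-315 matched ipsilateral 3-175 at a correlation of 0.843. Horns were therefore not compared within tags. The ipsilateral libraries come from the same 20 heifers as the contralateral ones and are not an independent set of animals.

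In the ipsilateral horn all 39 genes had a higher fitted level on day 5 than on day 7, 13 or 16. With edgeR's quasi-likelihood test and Benjamini-Hochberg adjustment over 19733 genes, 32 of the 39 passed an adjusted p of 0.05 against day 7, where 13.7% of all genes tested passed as higher on day 5. Against day 13, 38 passed beside 19.7% of all genes, and against day 16, 38 passed beside 19.2%. AOX3L1, TNS4 and LOC100850808 passed the filter on low counts only through day 5, so they had to be higher there. Without them, 31, 35 and 35 of 36 genes passed. None passed as lower on day 5, a direction in which 15%, 21.1% and 19.7% of all genes passed. The median log2 fold change of the 39 was 2.00 against day 7 (range 0.94 to 5.35), 2.81 against day 13 (1.195 to 7.74) and 2.38 against day 16 (1.34 to 6.74). The highest values were those of AOX3L1 (days 7 and 16) and TNS4 (day 13), which passed the filter only through day 5. The medians over all genes tested were 0.02, -0.00 and 0.01. The 3 comparisons share the day 5 libraries and are not independent of each other. The share of reads from mitochondrial DNA differed between the days too: it was 0.0812 to 0.165% in ipsilateral libraries of day 5, 0.124 to 0.399% on day 7, 0.448 to 0.526% on day 13 and 0.179 to 0.224% on day 16, and its part in these results was not tested. Without libraries 3-175 and 5-137, 29, 36 and 35 of the genes passed.

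The levels of the rule were met again in the ipsilateral horn by 26 of the 39 genes (66.7%). In that horn 96 of the 13156 rows at 5 CPM or more (0.73%) met them, and 27.1% of the 96 are among the 39. The 13 genes that did not meet them were CADM3, KRT7, EPHB6, TUBB2B, VILL, ARHGEF19, C3H1orf168, GFAP, LOC100850808, MSLN, CYP2S1, PROC and AQP5. Every ipsilateral day 5 library was above all 15 later ones for 14 of the 39 genes, while this held for 2.36% of all genes tested. In the contralateral horn, which chose them, it held for 23 of the 39, beside 3.16% of all genes. The day 5 mean over the highest later mean ranged from 3.06-fold to 26.8-fold in the contralateral horn (median 4.56) and from 1.92-fold to 40.4-fold in the ipsilateral horn (median 3.49). The ipsilateral day 5 mean was below the contralateral one for 33 of the 39 genes and above it for 6, with a median ratio of 0.739. Since contralateral values picked the genes, this difference between horns was not tested.

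**Figure D1:**
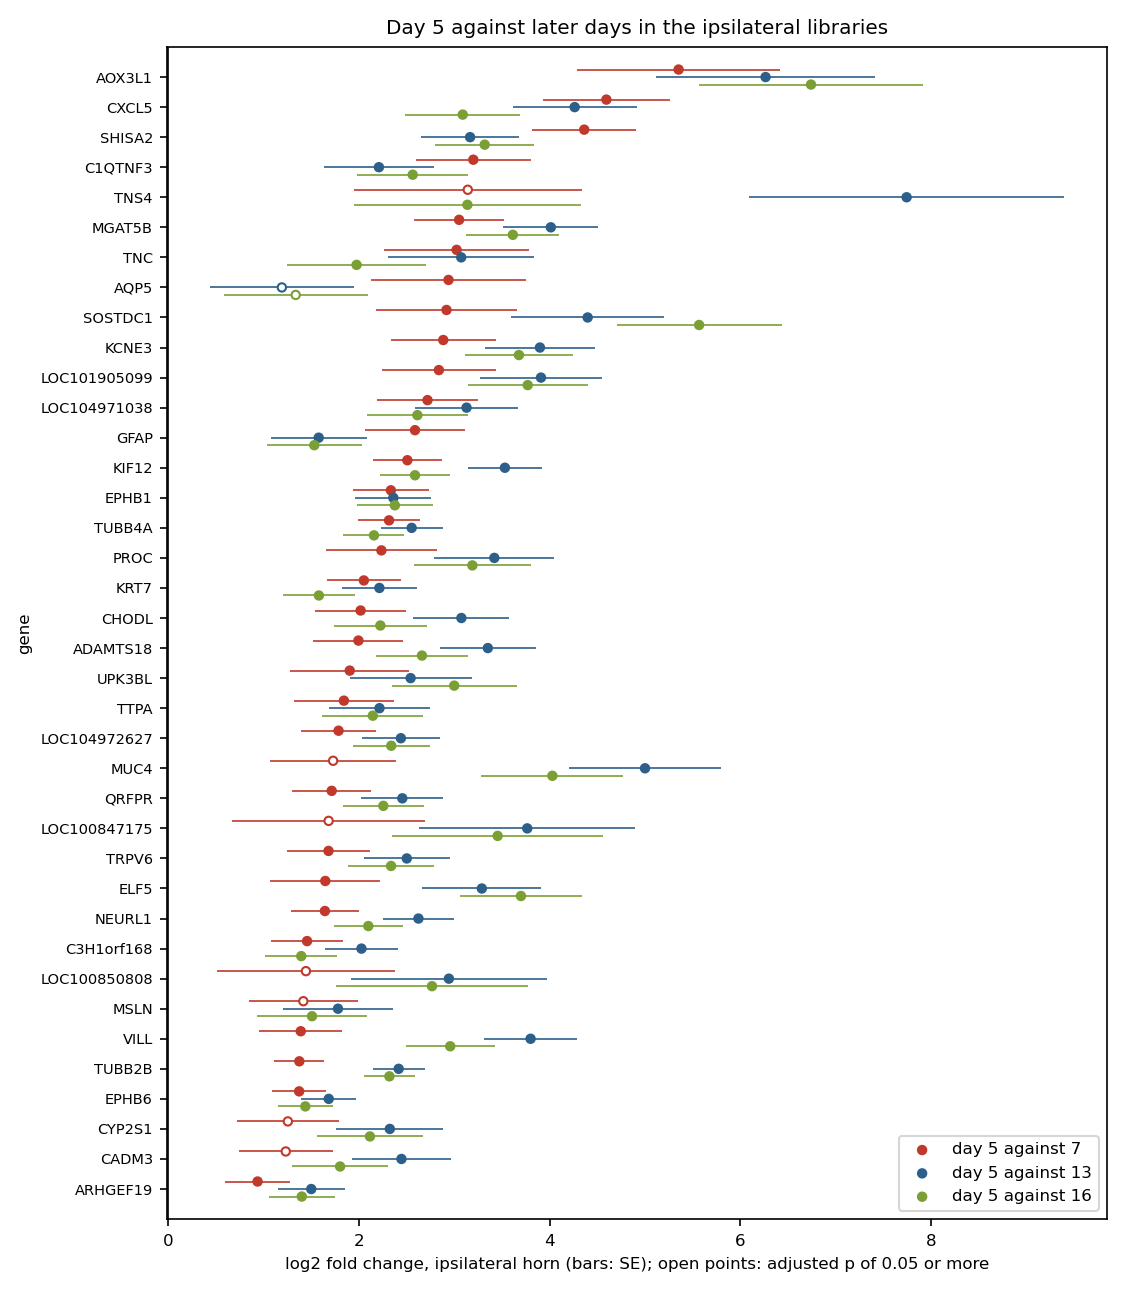
Log2 fold changes of 38 of the genes, day 5 over day 7 (red), day 13 (blue) and day 16 (green) in the ipsilateral horn, with standard errors as bars. Filled points passed an adjusted p of 0.05 and open points did not; all points lie above 0, and 7 genes are open against day 7.

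Of the matrix and adhesion genes, 4 of 6 were higher on day 5 than on day 7 by the test, and 6 of 6 than on days 13 and 16. The 6 include TNS4, which passed the filter on low counts only through day 5. Of all genes tested, 13.7% passed as higher on day 5 than on day 7, 19.7% than on day 13 and 19.2% than on day 16. TNC encodes tenascin-C, a matrix glycoprotein of tissues that are being remodelled. Its contralateral means were 485 ± 276 CPM on day 5 (SD, n = 5), 119 ± 50.4 on day 7, 118 ± 105 on day 13 and 153 ± 145 on day 16. In ipsilateral day 5 libraries, ordered here and below by the tags 1-315, 3-175, 4-184, 7-300 and 8-1350, it reached 598, 851, 446, 591 and 623 CPM. The 15 later ipsilateral libraries held 9.96 to 518 CPM, with a median of 75.0. Only the day 16 library of tag 7-107 lay within the day 5 range. TNC was 8.14-fold higher on day 5 than on day 7 (log2 3.03 ± 0.76, SE; edgeR adjusted p = 0.00673) and 8.42-fold higher than on day 13 (adjusted p = 0.00341). Against day 16 the fold was 3.94 (adjusted p = 0.0386), and this call was lost in 8 of 28 alternative settings, the highest adjusted p being 0.12 without tags 3-175 and 5-137. Without tag 7-107 the log2 value against day 16 was 3.16 (adjusted p = 0.00171), in place of 1.98. Without the day 13 library of tag 5-167 the log2 fold change against day 13 was 3.85.

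ADAMTS18 is a secreted metalloproteinase of the matrix. Its 5 ipsilateral day 5 values were 5.66, 18.8, 11.2, 6.28 and 13.1 CPM, and the later libraries held 0.511 to 5.39 with a median of 1.496. The groups did not overlap. The fold on day 5 was 3.99 against day 7 (edgeR adjusted p = 0.00445), 10.2 against day 13 (adjusted p = 4.38e-05) and 6.33 against day 16 (adjusted p = 0.000321). C1QTNF3 is a secreted protein with a C1q-like domain, studied as an adipokine. It held 9.998, 23.04, 6.57, 12.6 and 29.9 CPM on day 5 and 0.684 to 8.54 (median 1.96) later, with 1 later library, day 13 tag 5-167, inside the day 5 range. Its day 5 level was 9.20-fold that of day 7 (edgeR adjusted p = 0.000867).

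CHODL, a transmembrane protein of the C-type lectin family, had 27.9, 63.1, 49.1, 61.0 and 28.3 CPM on day 5 and 1.95 to 27.8 CPM later (median 7.90). The highest later library, day 7 tag 5-117, came just below the lowest day 5 library. CHODL was 4.06-fold higher than on day 7 (edgeR adjusted p = 0.00466, log2 2.02), with a log2 fold change of 2.65 when tag 5-117 was left out, and 8.43-fold higher than on day 13 (adjusted p = 0.000101). CADM3, an immunoglobulin-type adhesion molecule known mainly from nerve tissue, had 36.7, 199, 60.5, 131 and 34.7 CPM on day 5. Later libraries held 11.9 to 62.9 (median 18.4), and only 2 of the 5 day 5 libraries were above all of them. Its log2 fold change against day 7 was 1.24 ± 0.49 (adjusted p = 0.0676), which passed in 4 of 28 alternatives, and it was higher than on day 13 (2.45, adjusted p = 0.00095) and day 16 (1.80, adjusted p = 0.00832).

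TNS4 is a tensin-family protein of focal adhesions that is found in epithelia. It passed the filter on low counts only through day 5, so its tests could only come out higher there. It had 14.4, 13.1, 20.3, 5.75 and 2.39 CPM on day 5, and 0 to 6.13 CPM later with a median of 0.15. The later values fell into low and high ones: 3 libraries, day 7 tags 2-1337 (2.94) and 5-117 (2.88) and day 16 tag 5-137 (6.13), lay within the day 5 range, and the other 12 were at or below 0.222. On day 13 no read was counted in 3 of the 5 libraries, and 2 and 5 reads in the others. The log2 fold change against day 7 was 3.14 ± 1.19 (edgeR adjusted p = 0.0551), and it passed in 7 of 28 alternatives. Against day 13 it was 7.74 ± 1.65 (adjusted p = 0.00104), a size that depends on the prior count of the fit and that read 9.06 without day 13 tag 5-167. Against day 16 the value was 3.14 (adjusted p = 0.0438), and it was 6.89 (adjusted p = 0.000248) without tag 5-137. This last call was lost in 11 of 28 alternatives.

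**Figure D2:**
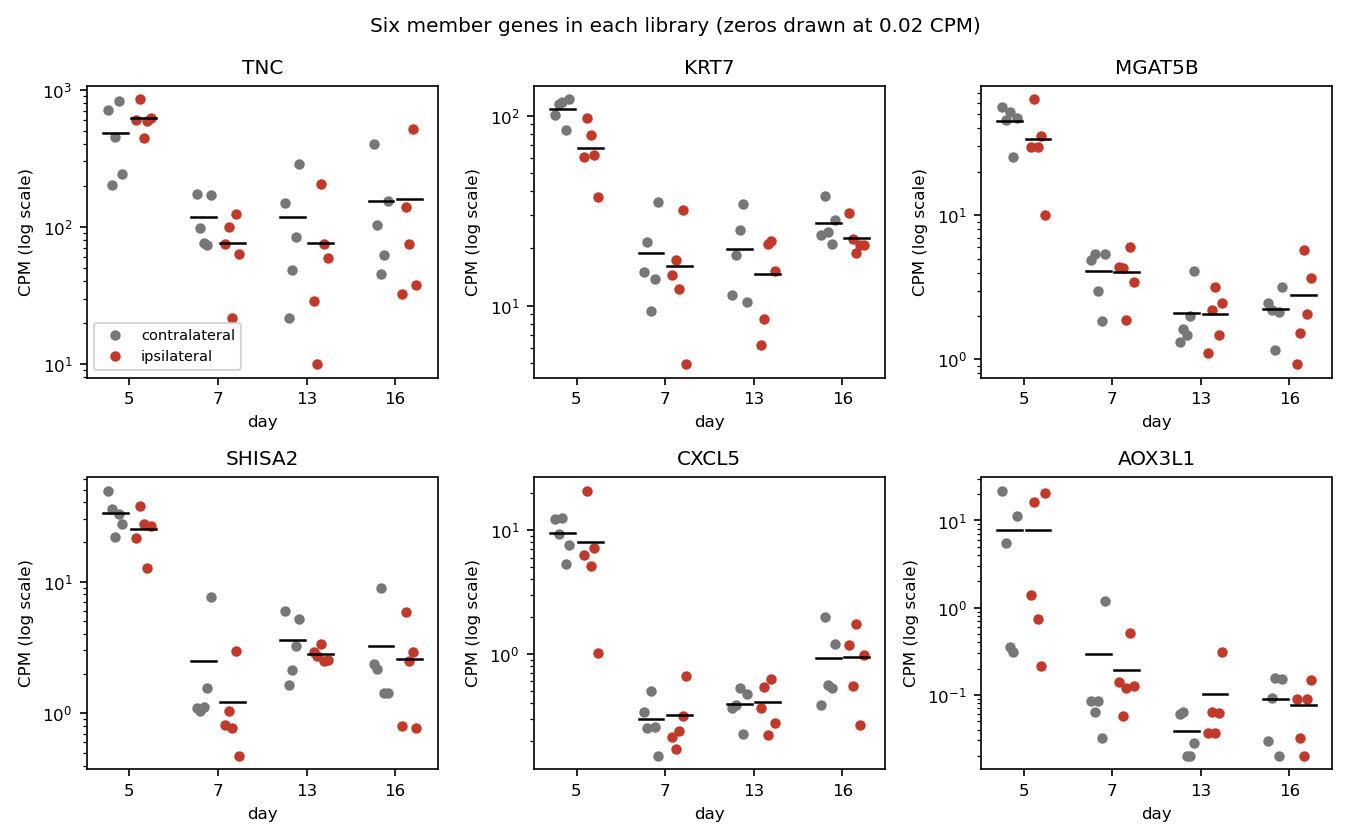
CPM (log axis) of 6 of the genes in each library by day, contralateral in grey and ipsilateral in red, with a bar at each group mean; values of 0 are drawn at 0.02 CPM. On day 5 MGAT5B and SHISA2 lie above every later library of both horns, KRT7 above every later one of its own horn, TNC overlaps in single later libraries, and AOX3L1 spreads from 0.214 to 21.9 CPM.

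Other matrix genes were mostly higher on day 5 where they passed. Of 53 tested matrix glycoproteins and proteoglycans other than TNC, 26 were higher and 1 lower on day 5 than on day 7 in the ipsilateral horn, with a median log2 fold change of 0.75. The counts were 26 and 1 against day 13 and 24 and 2 against day 16. Of all genes tested, 13.7% were higher and 15% lower against day 7, 19.7% and 21.1% against day 13, and 19.2% and 19.7% against day 16. TNXB, a tenascin of elastic and collagen-rich tissue, was 1.70 ± 0.23 higher on the log2 scale against day 7 (edgeR adjusted p = 5.21e-05), and FN1, which encodes fibronectin, 1.32 ± 0.25 higher (adjusted p = 0.000864). OGN, a small leucine-rich proteoglycan, was 1.55 ± 0.27 higher (adjusted p = 0.000421). Of 29 metalloproteinases and inhibitors other than ADAMTS18, 12 were higher and 4 lower than on day 7, 15 and 3 against day 13, and 12 and 3 against day 16. They include the protease inhibitor TIMP1 (log2 0.90 against day 7), the procollagen protease ADAMTS2 (0.69) and ADAMTS19 (1.15). Of 21 enzymes of collagen cross-linking and maturation, 15 were higher and 1 lower than on day 7. Markers of stromal fibroblasts moved alongside: 6 of 10 were higher and 0 lower than on day 7, and their summed level was 17150 to 27840 CPM on day 5 against 9874 to 20340 on day 7, 12090 to 17260 on day 13 and 11040 to 16830 on day 16. None of these markers was at 0. DCN and LUM are also in the matrix list and MMP2 in the metalloproteinase list, so the lists overlap. The part of the fibroblast markers in the matrix results was not tested.

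Of the 6 epithelial genes, 4 were higher on day 5 than on day 7, and 6 were higher than on days 13 and 16. KRT7 is a keratin of simple epithelia. Its contralateral means were 108 ± 15.6, 18.9 ± 10.004, 19.9 ± 9.93 and 27.1 ± 6.56 CPM on days 5, 7, 13 and 16. The ipsilateral day 5 libraries held 60.7, 97.5, 79.1, 62.4 and 37.4 CPM and the later ones 4.91 to 31.9 with a median of 18.9. No later library reached the lowest day 5 value. KRT7 was 4.15-fold higher than on day 7 (log2 2.05 ± 0.39, edgeR adjusted p = 0.000864), 4.65-fold higher than on day 13 (adjusted p = 0.000191) and 3.00-fold higher than on day 16 (adjusted p = 0.00295). These calls held in all 28 alternatives. Of 14 other epithelial markers tested, 1 was higher and 10 were lower on day 5 than on day 7, with a median log2 fold change of -0.65. Against day 13 the counts were 1 and 6 (median -0.20), and against day 16 they were 2 and 5 (median -0.21). Among all genes, 13.7% were higher and 15% lower against day 7, 19.7% and 21.1% against day 13, and 19.2% and 19.7% against day 16. Against day 7, CLDN7, a tight junction claudin, was at -1.32 ± 0.16 (edgeR adjusted p = 2.03e-05), ELF3, an epithelial transcription factor, at -0.69 and CDH1, which encodes E-cadherin, at -0.70. Summed with KRT7, the epithelial markers held 1009 to 1635 CPM on day 5, 1586 to 2024 on day 7, 1677 to 2313 on day 13 and 1517 to 2182 on day 16.

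MUC4, a membrane mucin of the apical cell surface, had 3.24, 15.1, 13.1, 4.64 and 4.01 CPM on ipsilateral day 5. It had 0.839 to 4.18 CPM on day 7, 0.125 to 0.346 on day 13 and 0.0897 to 1.82 on day 16. Day 7 libraries overlapped with day 5, and day 13 and day 16 libraries did not. Its log2 fold change was 1.73 ± 0.66 against day 7 (edgeR adjusted p = 0.0564, passed in 6 of 28 alternatives), 5.00 ± 0.80 against day 13 (adjusted p = 7.92e-05) and 4.03 ± 0.74 against day 16 (adjusted p = 0.000355). The last was 5.58 without day 16 tag 8-245. Among 13 other mucins and trefoil proteins, 3 were higher and 2 lower than on day 7, 6 and 2 against day 13, and 3 and 2 against day 16. The shares of all genes were 13.7% higher and 15% lower against day 7, 19.7% and 21.1% against day 13, and 19.2% and 19.7% against day 16. MUC16, another membrane mucin, was higher on day 5 than on day 7 (log2 2.65, adjusted p = 0.0221), with 0.64 (adjusted p = 0.545) against day 13 and 0.78 (adjusted p = 0.448) against day 16. MUC20 was lower than on day 7 (-1.57, adjusted p = 0.00646) but higher than on day 13 (1.67, adjusted p = 0.0027) and day 16 (1.73, adjusted p = 0.00238). MUC21 was lower than on day 7 (-2.49, adjusted p = 0.0289) and higher than on day 13 (3.86, adjusted p = 0.0195), with 1.71 (adjusted p = 0.17) against day 16. The day 7 calls of MUC16 and MUC21 were lost in 4 and 6 of 28 alternatives.

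ELF5 is an ETS transcription factor of epithelial cells, known from the mammary gland and, in mice, from the trophoblast. VILL is a villin-like actin-binding protein. ELF5 had 3.18, 13.5, 5.65, 9.35 and 1.86 CPM on day 5, against 0.179 to 3.75 later. VILL had 11.2, 30.9, 16.6, 25.2 and 14.4 CPM, against 0.700 to 12.9 later. For VILL 1 later library, day 7 tag 5-117, lay within the day 5 range, and for ELF5 2 did. The fold on day 5 against day 7, 13 and 16 was 2.63, 13.9 and 7.77 for VILL (edgeR adjusted p = 0.023, adjusted p = 9.24e-06 and adjusted p = 8.34e-05). For ELF5 it was 3.14, 9.78 and 13.0 (adjusted p = 0.0376, adjusted p = 0.00038 and adjusted p = 0.000193). The ELF5 call against day 7 was lost in 8 of 28 alternatives and that of VILL in 4; without day 5 tag 3-175 the log2 fold changes were 1.23 (adjusted p = 0.132) and 1.18 (adjusted p = 0.0692). Without day 16 tag 5-137 the ELF5 value against day 16 was 4.45, in place of 3.70.

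UPK3BL is related to the uroplakins, the plaque proteins of the bladder surface, and RefSeq lists it as UPK3BL2. It had 21.1, 42.8, 20.7, 26.2 and 10.9 CPM on day 5 and 0.419 to 15.3 CPM later (median 4.17), with 1 later library above the lowest day 5 one. The fold against day 7 was 3.75 (edgeR adjusted p = 0.028), and this call was lost in 5 of 28 alternatives. MSLN encodes mesothelin, a surface glycoprotein of mesothelium. It had 5.11, 7.34, 1.34, 3.18 and 1.16 CPM on day 5 against 0.380 to 2.34 later, and 9 later libraries lay above the lowest day 5 value. Its log2 fold changes of 1.42 (adjusted p = 0.0683), 1.78 (adjusted p = 0.0193) and 1.51 (adjusted p = 0.0429) were near the threshold: the day 16 call was lost in 11 of 28 alternatives and the day 13 call in 3, among them the fit without tag 3-175 (1.38, adjusted p = 0.0674). Other mesothelial markers did not move together. Beside the counts that follow, 13.7% of all genes tested were higher and 15% lower against day 7. These shares were 19.7% and 21.1% against day 13, and 19.2% and 19.7% against day 16. WT1, a transcription factor also of uterine stroma, was higher than on day 7 (log2 1.30, adjusted p = 0.00149) and UPK3B and KLK11 were lower (-1.01 and -0.90), 1 higher and 2 lower of 4 tested, with 0 higher and 1 lower against day 13 and against day 16. Summed with MSLN, the mesothelial markers held 98.7 to 179 CPM on day 5, 56.2 to 79.9 on day 7, 69.9 to 143 on day 13 and 75.1 to 166 on day 16. WT1 alone averaged 130 CPM on day 5 and 53.0 on day 7, so this sum is largely WT1. None of the markers was at 0, and their part in the MSLN result was not tested.

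All 3 channel genes passed as higher on day 5 than on day 7, as did 13.7% of all genes tested. KCNE3 is a small potassium channel subunit that, with KCNQ1, supports chloride secretion in intestinal epithelium. Its ipsilateral day 5 values were 9.08, 49.9, 20.1, 24.6 and 15.2 CPM and the later libraries held 0.312 to 5.22 (median 1.96). The groups did not overlap. The fold was 7.39 against day 7 (log2 2.89 ± 0.55, edgeR adjusted p = 0.000914), 14.9 against day 13 (adjusted p = 3.81e-05) and 12.8 against day 16 (adjusted p = 7.27e-05). TRPV6, the calcium entry channel of absorbing epithelia, had 8.77, 18.9, 6.61, 6.82 and 9.29 CPM on day 5 and 0.567 to 5.56 later. It too showed no overlap, with folds of 3.21 (adjusted p = 0.00788), 5.67 (adjusted p = 0.000243) and 5.06 (adjusted p = 0.000489). TRPV6 lies next to EPHB6 in RefSeq ARS-UCD2.0, with 0 genes between them.

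AQP5, a water channel of glands, varied widely between libraries of a day. It had 0.489, 3.51, 1.31, 1.28 and 7.91 CPM on day 5, 0.392 ± 0.253 on day 7 (SD, n = 5), 1.33 ± 1.28 on day 13 and 1.21 ± 1.201 on day 16. Only 1 day 5 library exceeded all later ones. The log2 fold change against day 7 was 2.94 ± 0.82 (edgeR adjusted p = 0.012), and 2.04 (adjusted p = 0.0514) without day 5 tag 8-1350. Against day 13 and day 16 it was 1.195 (adjusted p = 0.217) and 1.34 (adjusted p = 0.167), the comparisons that AQP5 alone among the 39 did not pass; against day 16 it passed at 2.09 (adjusted p = 0.0455) without tag 7-107. Of 64 other tested ion channel genes, 17 were higher and 4 lower on day 5 than on day 7, 15 and 4 against day 13, and 20 and 1 against day 16. Over all genes, 13.7% were higher and 15% lower against day 7, 19.7% and 21.1% against day 13, and 19.2% and 19.7% against day 16. The day 13 count of higher channel genes is near that share. PIEZO2, a mechanically gated channel, was higher than on day 7 (log2 1.25, adjusted p = 0.000898). SCNN1A, a subunit of the epithelial sodium channel, was lower than on day 7 (-2.02, adjusted p = 4.01e-05), as was the potassium channel KCNJ2 (-1.29, adjusted p = 0.000324).

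All 7 receptor and signalling genes passed as higher on day 5 than on each later day. Over all genes tested, 13.7% did so against day 7, 19.7% against day 13 and 19.2% against day 16. SHISA2 retains receptors for WNT and FGF in the endoplasmic reticulum, as first described for its family in Xenopus. Its contralateral means were 33.3 ± 10.3, 2.48 ± 2.86, 3.63 ± 1.91 and 3.27 ± 3.22 CPM. The ipsilateral day 5 libraries held 21.6, 37.3, 27.3, 12.6 and 26.3 CPM, and the later ones 0.475 to 5.87 (median 2.50). The lowest day 5 library was above every later one. SHISA2 was 20.6-fold higher than on day 7 (log2 4.36 ± 0.55, edgeR adjusted p = 2.94e-05), 8.98-fold higher than on day 13 (adjusted p = 9.08e-05) and 9.99-fold higher than on day 16 (adjusted p = 7.46e-05). Without day 7 tag 5-117 the log2 value against day 7 was 4.98.

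SOSTDC1 is a secreted antagonist of BMPs that also modulates WNT signalling, and it is known from the sensitized endometrium of the rat. It had 3.58, 19.5, 8.27, 5.35 and 38.4 CPM on day 5. Day 7 held 2.07 ± 1.11 CPM (SD, n = 5), day 13 0.744 ± 0.882 and day 16 0.335 ± 0.291. No later library reached the lowest day 5 value of 3.58, the highest later one being 3.33. The log2 fold changes were 2.92 ± 0.74 (edgeR adjusted p = 0.00694), 4.40 ± 0.80 (adjusted p = 0.000277) and 5.57 ± 0.86 (adjusted p = 7.28e-05). Without tag 8-1350, its highest library, they were 2.12 (adjusted p = 0.0294), 3.64 (adjusted p = 0.000771) and 4.78 (adjusted p = 0.000152). The value against day 13 was 5.48 without day 13 tag 8-275.

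QRFPR encodes the receptor of the RFamide peptide QRFP. It had 32.8, 70.0, 39.5, 80.1 and 18.3 CPM on day 5, against 4.54 to 29.95 later, with day 7 tag 5-117 the only later library inside the day 5 range. Its fold was 3.29 against day 7 (edgeR adjusted p = 0.00519), 5.49 against day 13 (adjusted p = 0.000177) and 4.78 against day 16 (adjusted p = 0.000414). LOC104972627 ran in near-constant ratio to it, with 0.94 to 1.66 reads per QRFPR read over all 40 libraries (median 1.22), and its folds were 3.46, 5.43 and 5.07. RefSeq does not hold that identifier, and whether both entries count shared reads was not tested, so the 2 entries may not be separate observations.

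EPHB1 and EPHB6 are receptors for ephrin-B ligands, of which EPHB6 lacks kinase activity. EPHB1 had 8.19, 14.98, 9.86, 9.21 and 17.1 CPM on day 5 and at most 5.19 later. EPHB6 had 26.9, 69.8, 25.4, 27.7 and 42.7 CPM and at most 21.7 later. Neither overlapped with any later library. EPHB1 was about equally far above each later day, 5.05-fold, 5.14-fold and 5.20-fold (edgeR adjusted p = 0.000378, adjusted p = 0.000133 and adjusted p = 0.000148), and EPHB6 was 2.60-fold, 3.22-fold and 2.71-fold higher (adjusted p = 0.00186, adjusted p = 0.000154 and adjusted p = 0.000689). NEURL1, an E3 ubiquitin ligase related to the Drosophila regulator of Notch ligands, was 3.13-fold, 6.17-fold and 4.29-fold higher (adjusted p = 0.00248, adjusted p = 2.50e-05 and adjusted p = 0.000196), with 1 later library above its lowest day 5 value of 2.81 CPM. ARHGEF19, a guanine nucleotide exchange factor, had the smallest change of the 39 against day 7. It was 1.92-fold higher than on day 7 (log2 0.94 ± 0.34, adjusted p = 0.0464), and that call was lost in 18 of 28 alternatives, with log2 0.66 (adjusted p = 0.165) without tag 3-175. Against days 13 and 16 it was 2.83-fold and 2.65-fold higher (adjusted p = 0.00208 and adjusted p = 0.00373).

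All 4 cytoskeletal genes passed as higher on day 5 than on each later day. The shares of all genes tested that did so were 13.7% against day 7, 19.7% against day 13 and 19.2% against day 16. TUBB2B and TUBB4A are beta-tubulins best known from neurons. TUBB4A had 11.5, 13.7, 11.6, 8.14 and 7.497 CPM on day 5 and 0.958 to 3.67 later, with no overlap, and its folds were 4.99, 5.88 and 4.47 (edgeR adjusted p = 6.86e-05, adjusted p = 8.42e-06 and adjusted p = 4.66e-05). TUBB2B had 23.8, 41.8, 30.1, 20.6 and 14.99 CPM on day 5 and 3.45 to 15.2 later, day 7 tag 5-117 reaching into the day 5 range. Its folds were 2.60, 5.35 and 5.00 (adjusted p = 0.000904, adjusted p = 2.53e-06 and adjusted p = 4.39e-06). KIF12, a kinesin motor of epithelial tissues, had 21.03, 37.8, 19.3, 5.78 and 28.3 CPM on day 5 against 1.63 to 5.67 later. It did not overlap, although tag 7-300 came within reach of the highest day 7 library, and its folds were 5.70, 11.6 and 6.02 (adjusted p = 9.62e-05, adjusted p = 1.79e-06 and adjusted p = 2.89e-05).

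GFAP, the intermediate filament of astrocytes and of non-myelinating Schwann cells, had 2.81, 17.7, 2.76, 2.50 and 8.05 CPM on day 5 and 0.450 to 3.88 later. Its log2 fold change against day 7 was 2.59 ± 0.52 (edgeR adjusted p = 0.00152), or 1.88 (adjusted p = 0.00579) without tag 3-175. Against days 13 and 16 it was 1.58 (adjusted p = 0.0168) and 1.53 (adjusted p = 0.0207), and both calls were lost without tag 3-175 (0.91, adjusted p = 0.104 and 0.85, adjusted p = 0.129). With log2 depth as a covariate the values were 0.42 (edgeR adjusted p = 0.48) and 0.69 (adjusted p = 0.169). The day 13 call was lost in 3 of 28 alternatives and the day 16 call in 5. Of 7 other markers of nerve and Schwann cells, 0 were higher and 1, S100B, was lower than on day 7 (log2 -1.07, adjusted p = 0.0265); UCHL1 and TUBB3 were at 2.22 (adjusted p = 0.0966) and 0.72 (adjusted p = 0.175). Against day 13 the counts were 1 and 1 and against day 16 they were 1 and 0, with TUBB3, a tubulin of neurons, higher on day 5 in both (log2 4.29, adjusted p = 1.67e-06, and 3.30, adjusted p = 1.46e-05). The shares of all genes tested were 13.7% higher and 15% lower against day 7. They were 19.7% and 21.1% against day 13, and 19.2% and 19.7% against day 16. The part of the nerve and Schwann cell markers in the GFAP result was not tested. Their sum with GFAP was 89.3 to 241 CPM on day 5, 261 to 331 on day 7, 99.7 to 185 on day 13 and 75.4 to 206 on day 16. S100B alone averaged 131 CPM on day 5 and 273 on day 7, so this sum is largely S100B.

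Of the 6 enzymes, transfer proteins and secreted proteins, 5 were higher on day 5 than on day 7, and all 6 than on days 13 and 16. Both counts include AOX3L1, which passed the filter on low counts only through day 5. Beside these counts, 13.7% of all genes tested passed as higher against day 7, 19.7% against day 13 and 19.2% against day 16. MGAT5B adds a branch to sugar chains on proteins and is known mainly from brain. Its contralateral means were 45.4 ± 11.8, 4.08 ± 1.59, 2.11 ± 1.15 and 2.22 ± 0.722 CPM. The ipsilateral day 5 libraries held 29.8, 63.8, 29.95, 35.3 and 10.01 CPM against 0.922 to 6.05 later, and the groups did not overlap. MGAT5B was 8.30-fold higher than on day 7 (log2 3.05 ± 0.47, edgeR adjusted p = 0.000174), 16.1-fold higher than on day 13 (adjusted p = 6.61e-06) and 12.3-fold higher than on day 16 (adjusted p = 1.85e-05), in all 28 alternatives.

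CXCL5 is a chemokine that attracts neutrophils. It had 6.30, 20.8, 5.12, 7.14 and 1.02 CPM on day 5, and 0.169 to 1.74 CPM later with a median of 0.368. The low day 5 value of tag 8-1350 fell below 2 day 16 libraries, and the other 4 were above all later ones. Its log2 fold changes were 4.59 ± 0.66 (edgeR adjusted p = 9.25e-05), 4.26 ± 0.65 (adjusted p = 4.99e-05) and 3.09 ± 0.60 (adjusted p = 0.000597). Without tag 3-175, its highest library, they were 3.87, 3.57 and 2.39 and still passed. Of 39 other chemokines and cytokines, 6 were higher and 5 lower on day 5 than on day 7, 8 and 7 against day 13, and 9 and 5 against day 16. For days 7 and 13 these counts are near the shares of all genes given above. Against day 7, CXCL14 was higher (log2 2.46, adjusted p = 0.00175), while the epithelial cytokine TSLP (-1.19, adjusted p = 1.42e-05) and CXCL16 (-0.98, adjusted p = 0.00113) were lower. CXCL16 was at 0.00 (adjusted p = 0.991) against day 13 and 0.10 (adjusted p = 0.697) against day 16. Of 3 neutrophil markers tested, 0 were higher on day 5 than on day 7, 1 than on day 13 and 0 than on day 16. None was lower. Of all genes tested, 13.7%, 19.7% and 19.2% were higher in these comparisons. Summed neutrophil markers, of which 3 passed the filter on low counts, were 18.2 CPM in day 5 tag 3-175, the library with the most CXCL5, and 2.18 to 3.21 in the other 4 day 5 libraries. They were 1.39 to 3.12 on day 7, 1.80 to 5.62 on day 13 and 3.77 to 9.57 on day 16; none was at 0 throughout, and their part in the CXCL5 result was not tested.

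AOX3L1 is an aldehyde oxidase, listed in RefSeq as AOX2. It was on in some day 5 libraries and nearly off in others. Like TNS4, it passed the filter on low counts only through day 5, so its tests could only come out higher there. The 5 ipsilateral values were 1.41, 16.2, 0.742, 0.214 and 20.4 CPM and the 5 contralateral ones, in the same tag order, 21.9, 5.49, 0.350, 0.311 and 11.3. These are not read as pairs, since the horns of a tag were each other's closest match in only 5 of 20 tags. Later ipsilateral libraries held 0 to 0.519 CPM, with a median of 0.0893, from at most 18 reads. The log2 fold change was the largest of the 39 against day 7, 5.35 ± 1.06 (edgeR adjusted p = 0.0013), and it was 6.26 (adjusted p = 0.000271) and 6.74 (adjusted p = 0.000214) against days 13 and 16. Leaving out tag 8-1350 gave 4.52 (adjusted p = 0.00354), 5.46 and 5.92, leaving out day 7 tag 5-117 gave 6.12 against day 7, and leaving out day 13 tag 8-275 gave 7.23 against day 13.

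TTPA binds vitamin E and carries it between membranes. It had 11.3, 20.6, 21.2, 28.1 and 9.60 CPM on day 5 against 1.31 to 12.6 later, of which the highest was day 16 tag 5-137. Its folds were 3.59 (edgeR adjusted p = 0.0134), 4.65 (adjusted p = 0.0026) and 4.43 (adjusted p = 0.00354), and without tag 5-137 the log2 fold change against day 16 was 3.15 in place of 2.15. PROC encodes protein C, a liver-made anticoagulant zymogen. It had 4.74, 4.72, 3.29, 0.464 and 8.22 CPM on day 5 and at most 1.76 later, so that only tag 7-300 overlapped, and its folds were 4.72 (adjusted p = 0.00839), 10.7 (adjusted p = 0.000286) and 9.13 (adjusted p = 0.000533). CYP2S1, a cytochrome P450 of epithelia, had 4.07, 9.81, 2.90, 3.82 and 0.895 CPM on day 5 and 0.319 to 2.73 later. Its log2 fold change against day 7 was 1.26 ± 0.53 (adjusted p = 0.0831), with 2.33 (adjusted p = 0.00272) and 2.12 (adjusted p = 0.00534) against days 13 and 16.

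Of the 6 entries with no role given, 4 were higher on day 5 than on day 7 and 6 than on days 13 and 16. The 6 include LOC100850808, which passed the filter on low counts only through day 5. Among all genes tested, 13.7% passed as higher against day 7, 19.7% against day 13 and 19.2% against day 16. LOC101905099 had 6.54, 25.96, 9.86, 11.99 and 5.47 CPM on day 5 and at most 4.32 later, and LOC104971038 had 11.2, 30.5, 8.97, 19.2 and 4.50 CPM and at most 3.69 later. Neither overlapped. Their folds against day 7 were 7.16 (edgeR adjusted p = 0.00199) and 6.59 (adjusted p = 0.0011), and the log2 value of LOC101905099 went from 2.84 to 3.56 without day 7 tag 5-117. C3H1orf168 was 2.75-fold higher than on day 7 (adjusted p = 0.00797), 4.08-fold than on day 13 (adjusted p = 0.000393) and 2.63-fold than on day 16 (adjusted p = 0.00665). LOC100847175, which RefSeq lists as a miscellaneous RNA with 3 genes between it and CXCL5, had 1.10, 14.6, 3.43, 12.7 and 3.58 CPM on day 5. Its log2 fold change against day 7 was 1.69 ± 1.01 (adjusted p = 0.223), and it was higher than on day 13 (3.77, adjusted p = 0.012) and day 16 (3.46, adjusted p = 0.0186). The last value was 4.14 without tag 8-245. LOC100850808 had 1.68, 0.186, 2.58, 0.892 and 1.72 CPM on ipsilateral day 5 and a contralateral mean of 7.43 ± 10.6 that 1 library carried. It too passed the filter on low counts only through day 5, so its tests could only come out higher there. Its log2 fold change was 1.45 ± 0.93 against day 7 (adjusted p = 0.257), 2.94 against day 13 (adjusted p = 0.0276) and 2.77 against day 16 (adjusted p = 0.036), or 7.00 without tag 5-137. The last 2 calls were lost in 5 of 27 and 8 of 28 alternatives.

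After day 5 the levels stayed below it, by courses that varied from gene to gene. Day 7 had the highest later mean for 28 of the 39 genes in the ipsilateral horn, day 13 for 3 and day 16 for 8. From day 7 to day 13, a comparison that holds no day 5 library, 8 of the 39 were lower on day 13, beside 14% of all genes tested, and 0 were higher, beside 14.6%. The median log2 difference of day 7 over day 13 was 0.91, with 34 positive and 5 negative, against -0.03 over all genes. The 8 were MUC4 (3.27 ± 0.77, edgeR adjusted p = 0.00319), VILL (2.41 ± 0.47, adjusted p = 0.0007), TUBB2B (1.04 ± 0.26, adjusted p = 0.00555), TNS4 (4.60, adjusted p = 0.0398), ELF5 (1.64, adjusted p = 0.0473), ADAMTS18 (1.36, adjusted p = 0.0408), KIF12 (1.02, adjusted p = 0.0396) and NEURL1 (0.98, adjusted p = 0.0492). The last 5 were near the threshold and were lost in 7 to 13 of 28 alternatives (27 for TNS4). The count was 3 without day 13 tag 5-140 or 4-1314, and 4 without day 13 tag 8-275 or day 7 tag 5-117 or 2-371.

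The fitted level of 5 genes was lower on day 7 than on day 13, but none passed, AQP5 (log2 day 7 over day 13 of -1.75, adjusted p = 0.113), SHISA2 (-1.20, adjusted p = 0.0836), GFAP (-1.01, adjusted p = 0.15), C1QTNF3 (-0.99, adjusted p = 0.21) and CXCL5 (-0.33, adjusted p = 0.749). SHISA2 passed at -1.80 (adjusted p = 0.0113) without day 7 tag 5-117, and AQP5 was at -0.93 without day 13 tag 6-203. GFAP passed in 1 of 28 alternatives. Between days 13 and 16, 0 of the 39 passed with edgeR in either direction, beside 0.253% and 0.193% of all genes. At an unadjusted p under 0.05 there were 2 of the 39, and 2213 of all genes. DESeq2 and limma-voom also gave 0.

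**Figure D3:**
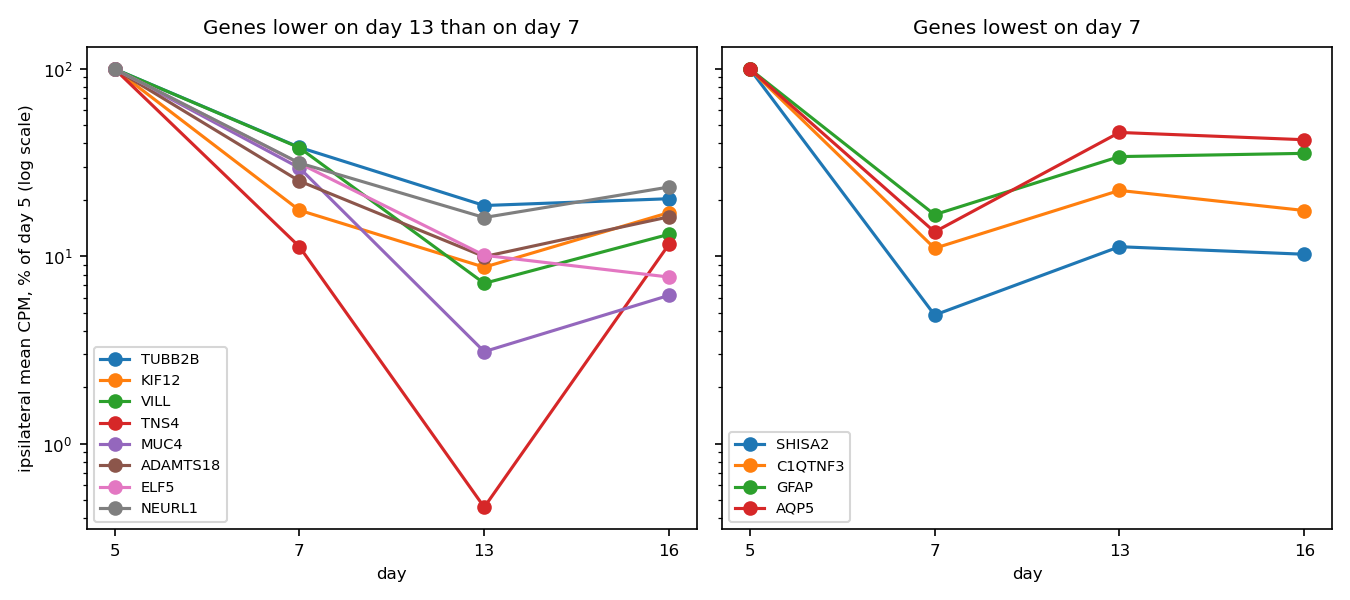
Ipsilateral mean CPM by day as percent of the day 5 mean (log axis), for the 8 genes that were lower on day 13 than on day 7 (left) and for 4 of the 5 genes whose fitted level was lower on day 7 than on day 13 (right). On the left MUC4 and TNS4 reach the lowest values on day 13; on the right all 4 genes are at their lowest on day 7.

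Within day 5 the spread between heifers was wide. The highest library was over 4-fold above the lowest for 25 of the 39 genes in the ipsilateral horn and for 16 in the contralateral one. Single libraries were the highest of their 5 for many of these genes at once. Such counts, here and below, were not made over all genes, so whether they are particular to these genes was not tested. Ipsilateral tag 3-175 had a median level over the 39 genes of 20.9 CPM, while the other 4 ipsilateral day 5 libraries had 9.998 to 11.6. Contralateral tag 1-315 was highest of its 5 for 20 genes and tag 4-184 for 12. Contralateral 1-315 and ipsilateral 3-175, matched above by other genes, were both the highest of their group for 17 of the 39.

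Day 7 showed the same kind of spread, again counted over the 39 genes only. Ipsilateral tag 5-117 and contralateral tag 6-338, which matched at a correlation of 0.927 over the 2000 other genes, were each the highest day 7 library for 27 genes, 23 of them in both. Their medians over the 39 genes were 4.32 and 5.63 CPM, and the other 8 day 7 libraries had 1.71 to 3.31. For 21 of the 39 genes, tag 5-117 held the highest of all 15 later ipsilateral values. On day 16, tag 5-137 had a median of 3.67 CPM against 1.31 to 2.27 in the other ipsilateral libraries and was the highest of its 5 for 21 genes. The share of reads in mitochondrial DNA, another property of these libraries, was lowest of its group in each of contralateral 6-338 (0.112%) and ipsilateral 5-117 (0.124%) on day 7 and in ipsilateral 3-175 (0.0812%) on day 5. In ipsilateral 5-137 it was the highest of its group (0.224%). Its part in the levels was not tested.

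**Figure D4:**
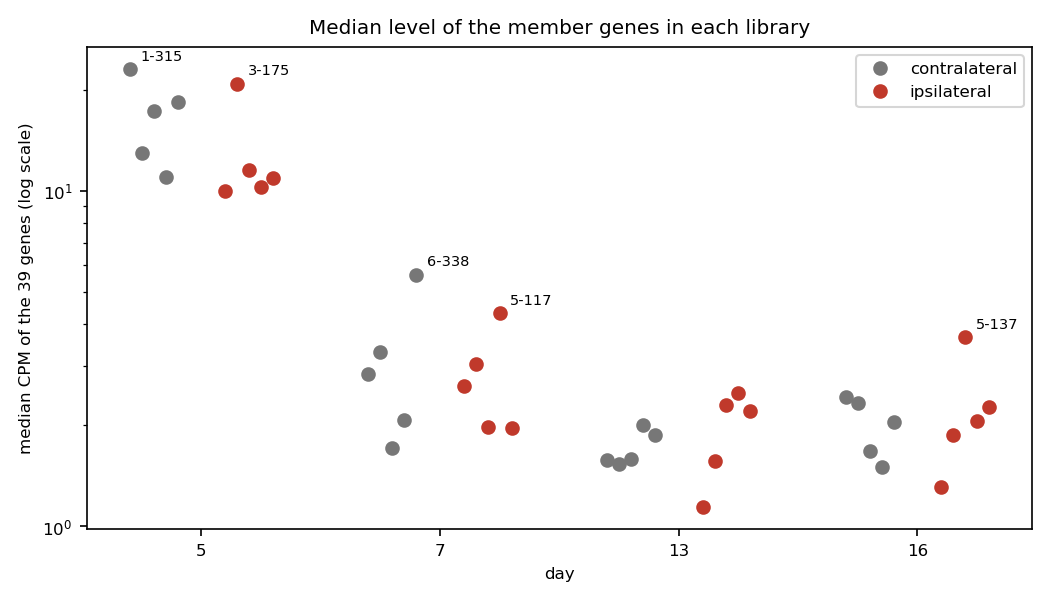
Median CPM (log axis) of the 39 genes in each library by day, contralateral in grey and ipsilateral in red, with the tags of the libraries named in the text. All 10 day 5 libraries lie between 9.998 and 23.1 CPM and all 30 later ones between 1.14 and 5.63 CPM.

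Library 8-1350 of ipsilateral day 5 stood out in another way. Its summed level of 10 smooth muscle markers was 5250 CPM, while the other 4 day 5 libraries held 799 to 1012, and day 7, 13 and 16 libraries 319 to 641, 387 to 984 and 324 to 827. Of these markers, 7 of 10 were higher and 0 lower on day 5 than on day 7, 6 and 0 against day 13 and against day 16, and none was at 0. That library was the highest of its 5 for 6 genes (EPHB1, C1QTNF3, SOSTDC1, AOX3L1, PROC and AQP5) and the lowest for 18. Without it, 33, 38 and 36 of the 39 genes passed against days 7, 13 and 16. Of 36 cell cycle genes tested, 7 were higher and 2 lower on day 5 than on day 7, and 30 and 32 were higher than on days 13 and 16. Beside both lists, the shares of all genes were 13.7% higher and 15% lower against day 7, 19.7% and 21.1% against day 13, and 19.2% and 19.7% against day 16.

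At the edge of the rule, the contralateral ratio of the highest later mean to the day 5 mean was 0.327 for C3H1orf168, 0.321 for AQP5, 0.320 for GFAP and 0.319 for EPHB6, just inside. Just outside were LTBP1 at 0.334, which encodes a protein that binds latent TGF-beta in the matrix, THBS3 at 0.337, FBN2, a fibrillin of elastic microfibrils, at 0.342, and SMPX at 0.342. On level, AQP5 (5.51 CPM), PROC (5.83) and CYP2S1 (6.04) were just above the minimum, and SSC4D (4.87), CTHRC1 (4.54) and NTS (4.52) just below it.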

How the data were processed

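RNA from homogenised endometrium went into stranded, poly(A)-based libraries, per the labels' protocols. The authors counted reads per gene with featureCounts after HISAT2 alignment to build UMD3.1, with FastQC checks, per the submitters' processing notes; versions are not named there. The deposited values are whole-number counts, used as they stand. Column totals, including a mitochondrial row left out of tests, gave CPM. Samples were grouped by the day and horn in their labels, 5 per group. Tests were edgeR 4.0.16 quasi-likelihood tests (R 4.3.3) with TMM scaling and filterByExpr, 1 fit over the 20 ipsilateral libraries, with Benjamini-Hochberg adjustment over 19733 genes and a threshold of 0.05. All 39 genes passed the filter, 36 of them on the 15 later libraries alone. Alternatives were DESeq2 1.42.0, limma-voom (limma 3.58.1), RLE scaling, no filter, a robust prior, log2 depth as a covariate, only the libraries of the days compared, and each library left out in turn; leaving out tags 3-175 and 5-137 together was added after seeing the data. The members, the gene and marker lists and the rule for named genes (highest levels, lowest ratios, rule limits, list members, largest and smallest changes, and up to 3 genes of each list that holds a member) were chosen with earlier results of these data known; other members are described too. No library repeats another. The 5 libraries of a group carry the tags of 5 heifers. How reads that fit several genes were counted is unknown here. The 27 rows whose names had turned into dates stayed in the totals and the rule, and in the fit where they passed the filter. None of them is among the 39 genes, and none is named here. Promoter motifs were not analysed here. Of the 39 genes, 1 is counted but not reported here by name.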

Additional observations from a re-analysis of the deposited data

Results flagged for a closer look

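In 4 of the 86 groups of 5 values checked (each gene's day 5 libraries in each horn, and depth), the highest value stood apart by over 0.71 of the group's range. Chance does so in about 1 in 20 groups. TRPV6 on ipsilateral day 5 reached 18.94 CPM in tag 3-175, with 9.286 CPM as the next value. The other 3 lie in the contralateral horn and in 1 library, tag 4-184: LOC100850808 at 26.13 CPM (next 5.195), MSLN at 16.65 CPM (next 5.963) and AQP5 at 19.67 CPM (next 3.29). That library was highest of its 5 for 12 of the 39 genes. These contralateral values took part in choosing the genes. Without tag 4-184, the contralateral day 5 means of LOC100850808, MSLN and AQP5 would lie under the minimum of 5 CPM.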

How the results depend on the processing

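Of 108 calls of a gene as higher on day 5 than a later day, 94 held in every alternative that gave a value, 14 were lost in at least 1, and none reversed. The 108 include calls of AOX3L1, TNS4 and LOC100850808, whose tests could only come out higher on day 5. Without these genes, 31, 35 and 35 of 36 passed against days 7, 13 and 16 in the main fit. The counts by setting below include them. There were 28 alternatives, or 27 for AOX3L1 against days 13 and 16, LOC100850808 against day 13 and TNS4 between days 7 and 13, which were filtered out with only the libraries of the days compared. The number of genes passing against days 7, 13 and 16 was 35, 38 and 37 with DESeq2, 34, 37 and 37 with limma-voom, and 29, 36 and 35 with log2 depth as a covariate. Leaving out 1 library gave 27 to 34, 36 to 38 and 33 to 38. The count of 8 genes lower on day 13 than on day 7 became 3 with limma-voom and 5 with log2 depth, and 3 to 9 with 1 library left out; the cause was not tested. The rule gave 23 genes at a ratio limit of 0.25 and 167 at 0.5, in place of 39, and 29 to 53 with 1 contralateral library left out. In the ipsilateral horn, 14 of the genes met the levels at 0.25, in place of 26, and 18 did without tag 3-175. No paired analysis was possible because the days compared come from different heifers with different tags and each test uses 1 horn. Depth limits genes of few reads: TNS4, AOX3L1, LOC100850808 and LOC100847175 had later libraries with no read.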
